A study of Brassica napus with 16 samples.

Results

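Flower buds and siliques of oilseed rape (Brassica napus) were compared as reproductive organs before and after fruit set. The comparison used the 4 flower bud and the 4 silique libraries, 8 of the 16 RNA-seq libraries in the series, and it covered the 47176 genes, of 101040 listed, that reached 1 FPKM in 2 or more of these 8 libraries. FPKM counts sequenced fragments for each kilobase of a transcript and scales them to the library's mapped fragments. The 4 groups were flower bud of cultivar 2063A, silique of 2063A, flower bud of cultivar B409 and silique of B409, with 2 replicates each. Both organs came from plants moved to the field as seedlings at about 20 d. Buds were at most 2 mm long and siliques 3 to 5 cm long. No transgene or treatment is given for any group, and the labels do not state whether replicates were separate plants. P-values thus reflect sample-to-sample spread, part or all of which may be technical. In the fit that pools the cultivars, the spread also holds any difference between the cultivars in the organ change.

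A flower bud holds the forming sepals, petals, stamens and pistil, and the anthers in it pass through meiosis and early pollen development. The silique is the fruit that the pistil becomes after fertilization. Its green walls photosynthesize, and the seeds inside it build up oil and storage protein. B. napus is an allotetraploid with an A and a C subgenome, so most genes have related copies on both.

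The files identify genes by number and do not pair the identifiers with gene names. A table of RefSeq genes (assembly Da-Ae) matched 3347 of the listed identifiers, 2174 of them among the tested genes, and gave a name to 2. None of the members of the 14 gene lists (floral organ identity, anther and meiosis, late pollen, seed storage, seed oil, embryo regulators, fruit patterning, photosynthesis, flowering time, gibberellin, cell division, cell wall, glucosinolate and flavonoid genes) or of the 4 lists of defining markers could be tied to a measured identifier. The labelled organs were therefore not checked against marker genes, and roles are not given for genes known by identifier only. Chromosome and subgenome were read from the identifiers, and the build behind them is not given here.

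The libraries were alike in broad measures. Genes with an FPKM of at least 1 numbered 38691 to 41456 in flower bud and 38710 to 40398 in silique. The 100 most abundant genes held 9.38% ± 0.81 of summed FPKM in flower bud and 12.3% ± 0.28 in silique (SD, n = 4 each). Low values of a gene fell on whole-number steps, which gave the relative depth of the libraries: it ran from 0.456 (B409 flower bud replicate 2) and 0.459 (2063A silique replicate 1) to 1.26 (2063A flower bud replicate 2), with 2063A flower bud replicate 1 set to 1. Across tested genes, log2 values correlated at r = 0.983 to 0.987 between replicates, 0.866 to 0.896 between the cultivars within an organ, and 0.719 to 0.786 between the organs within a cultivar. Genes are not independent, so these values are descriptions.

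Between the organs, 4738 genes were higher in flower bud, 10% of those tested, and 4831 were higher in silique, 10.2% of those tested, together 20.3%. Calls came from a limma fit with cultivar as covariate and required an adjusted p (Benjamini-Hochberg) under 0.05 with a change of 2-fold or more on the log2(FPKM + 1) scale. Without the size requirement, 27664 genes (58.6%) passed. In bulk organs, fewer cells of a type and less RNA per cell cannot be told apart. The 4 libraries of flower bud lay above all 4 of silique for 4432 of the genes called higher in flower bud, and the opposite held for 4510 of those called higher in silique. Among all tested genes these arrangements were found for 25.5% and 18.1%. The 95% interval of the log2 change lay within -1 to 1 for 29680 genes (62.9%). Of the 30743 tested genes that reached 1 FPKM in every one of the 8 libraries, 1920 were called higher in flower bud and 2047 in silique.

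The balance between the organs changed with the size of the difference. At a log2 change of at least 3, 428 genes were called higher in flower bud and 554 in silique. At a log2 change of at least 5 the order was the other way round, with 138 in flower bud and 87 in silique, and at 7 or more it was 65 and 15. These counts include genes listed at 0 throughout 1 organ, whose change is set by their level in the other. Of such genes that reached 1 FPKM in each library of the other organ, 62 in flower bud and 18 in silique had a mean of at least 100. The median change of all tested genes was 0.12, toward flower bud. With a pseudocount of 0.1 in place of 1, the counts rose to 7646 higher in flower bud and 6772 higher in silique, which turned the balance toward flower bud. Equal summed FPKM also turned it, with 4948 higher in flower bud and 4686 in silique. Quantile normalization moved it toward silique, with 4262 and 5236. Which organ had more called genes thus depended on the scaling.

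**Figure D1:**
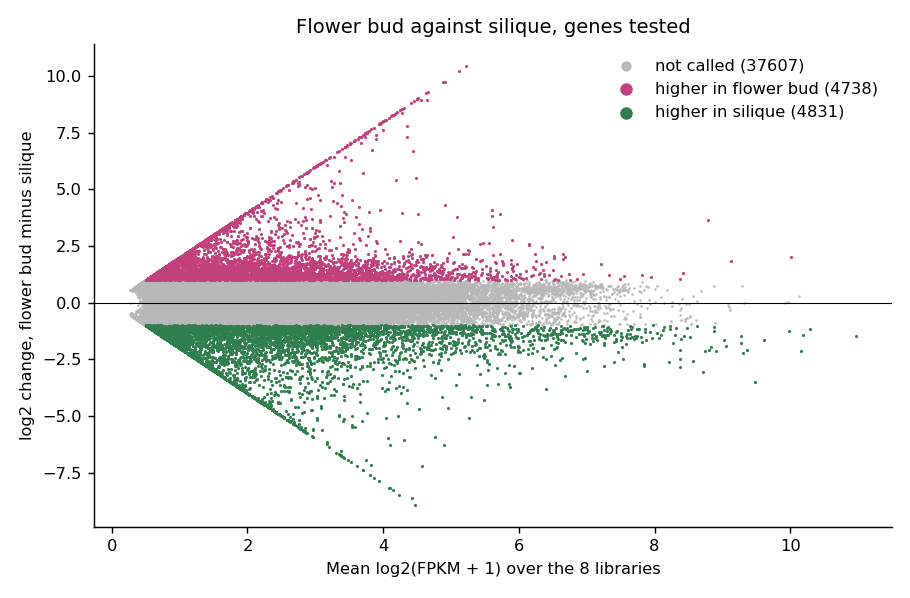
Each point is a tested gene, with its mean log2(FPKM + 1) over the 8 libraries on the horizontal axis and the log2 change, flower bud minus silique, on the vertical axis. The 4738 genes called higher in flower bud reach larger changes than the 4831 called higher in silique, and points on the outer straight edges are genes at or near 0 throughout 1 organ.

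Among genes called without overlap and detected in at least 1 library of each organ, those with the largest changes were nearly off in the other organ. BnaC03g15620D, on chromosome C03, had FPKM values of 397 and 450 in flower bud of 2063A and 1815 and 1853 in flower bud of B409. It was listed at 0 in 3 silique libraries and at 0.104 in B409 silique replicate 2. The log2 change was 9.75 (SE 0.34, limma adjusted p = 1.3e-08), and the buds of B409 lay well above those of 2063A.

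BnaA04g06280D, on A04, was at 578 and 709 in flower bud of 2063A and at 628 and 634 in flower bud of B409. In silique it was listed at 0 in 3 libraries and at 0.036 in B409 replicate 2 (log2 change 9.30, SE 0.09, limma adjusted p = 5.2e-12). Its bud levels overlapped between the cultivars. Both genes were listed at 0 in all young leaf and root libraries.

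On the silique side, BnaA05g20420D was at 388 and 417 in silique of 2063A and at 404 and 509 in silique of B409. In flower bud it was at 0.056 and 0.177 in 2063A, and at 0.080 and 0 in B409 (log2 change -8.64, SE 0.11, limma adjusted p = 1.4e-11). The cultivars overlapped in silique, and in both the buds were close to 0. BnaC05g32380D was at 251 and 276 in silique of 2063A and at 281 and 369 in that of B409. Its buds were at 0.982 and 1.24 in 2063A and at 0.729 and 0.891 in B409 (log2 change -7.23, SE 0.13, limma adjusted p = 1.7e-10). It was low but detected in most other libraries, at 0 to 0.232 in young leaf and 0.112 to 0.347 in root.

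The 2 genes with the highest mean in each organ differed less steeply than those above. Steep differences were not confined to lower levels: BnaA03g12750D, described below, had a bud mean of 1543 and was listed at 0 in silique. In flower bud the highest mean belonged to BnaAnng37980D, which is placed on the A subgenome without a chromosome. It was at 1406 and 2122 in flower bud of 2063A and at 2682 and 2330 in that of B409, against 765 and 608 in silique of 2063A and 387 and 392 in that of B409 (log2 change 2.01, SE 0.26, limma adjusted p = 0.00013). The organs did not overlap, and the gap was wider in B409. BnaA02g02910D followed, at 1537 and 1698 in flower bud of 2063A and 1611 and 1444 in flower bud of B409. In silique it was at 157 and 129 in 2063A and at 117 and 99.8 in B409 (log2 change 3.65, SE 0.12, limma adjusted p = 1.1e-08). Young leaf did not exceed 6.8 and root did not exceed 0.515 for this gene, so it was abundant only in the 2 reproductive organs among the 4 tissues of the series.

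In silique the highest mean belonged to BnaC04g30870D, at 3105 and 2929 in 2063A and at 3704 and 3723 in B409. Its buds were at 1205 and 1592 in 2063A and at 1021 and 1072 in B409 (log2 change -1.47, SE 0.18, limma adjusted p = 7.8e-05). This gene was higher still in young leaf, at 6580 to 8590. The next, BnaA05g14890D, was at 1819 and 1834 in silique of 2063A and at 2929 and 3304 in silique of B409, against 235 and 214 in flower bud of 2063A and 188 and 212 in that of B409 (log2 change -3.49, SE 0.19, limma adjusted p = 2.8e-07). It reached only 16.1 in young leaf and 0.554 in root. The pair therefore differed outside the reproductive organs, although both headed the silique.

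**Figure D2:**
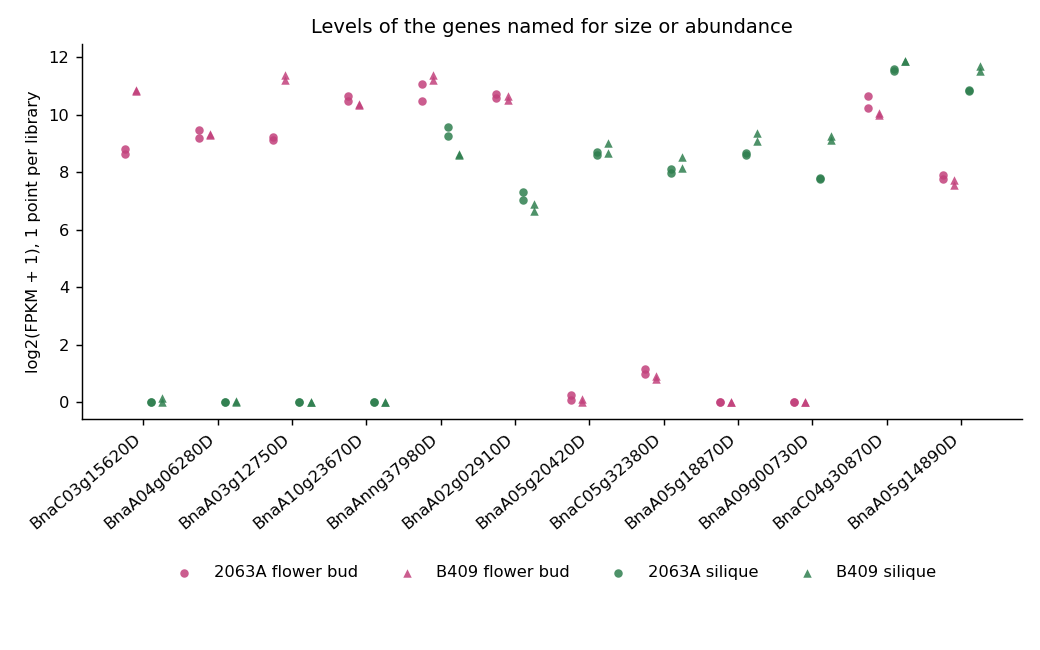
Each point is the log2(FPKM + 1) of a gene in 1 library, with the organ by colour and the cultivar by shape. The 6 genes on the left were higher in flower bud and the 6 on the right in silique, and for BnaC03g15620D and BnaA03g12750D the buds of B409 stand above those of 2063A.

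Presence in a single organ of the pair was counted next by a cut at 1 FPKM, without a test. A gene near 1 FPKM in both organs can meet this rule. Genes that reached 1 FPKM in each of the 4 flower bud libraries and stayed below 1 in each silique library numbered 1687, and the reverse held for 1613. The organ call was also passed by 1393 of the flower bud genes and 1420 of the silique genes. Levels in these classes were mostly low: the median of the mean FPKM was 3.35 for the flower bud genes and 3.53 for the silique genes. The high end was longer in flower bud, where 78 of these genes had a mean of at least 100, against 24 in silique. Of these genes, 540 in flower bud and 583 in silique were listed at 0 in every library of the other organ. All of these passed the organ call on the log2(FPKM + 1) scale, so they are among the called genes above. For single genes, no organ fold change is given against an organ listed at 0.

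The flower bud gene with the highest level in that class was BnaA03g12750D, at 602 and 558 in 2063A and at 2366 and 2644 in B409. The next, BnaA10g23670D, was at 1406 and 1612 in 2063A and at 1327 and 1280 in B409. The first was several-fold higher in buds of B409, and the second was slightly lower there. In silique, BnaA05g18870D was at 386 and 408.6 in 2063A and at 536 and 658 in B409, and BnaA09g00730D was at 219 and 214 in 2063A and at 552 and 608 in B409. Both silique genes were higher in B409. All 4 genes were listed at 0 in every young leaf and root library.

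The libraries of young leaf (from 2-week seedlings) and root (at 7 d) took no part in the contrast, and they showed where else the called genes were expressed. Of the 4738 genes higher in flower bud, 4256 (89.8%) had their highest mean of the 4 tissues in flower bud, 375 in root and 107 in young leaf. Of the 4831 genes higher in silique, 2446 (50.6%) had their highest mean in silique, 1259 (26.1%) in young leaf and 1126 (23.3%) in root. A gene called higher in bud was thus mostly highest there, while the genes called higher in silique were divided more evenly among 3 tissues. No gene called higher in bud had its highest mean in silique, and the reverse also held, which follows largely from the calling. How all tested genes divide among the 4 tissues is not given here, so whether these shares are unusual was not tested.

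The share of summed FPKM taken by these genes followed the same division. Genes higher in flower bud held 17.1% ± 2.37 of summed FPKM in flower bud, 3.2% ± 0.27 in silique, 2.11% ± 0.49 in young leaf and 4.73% ± 0.1 in root (SD, n = 4 each). In flower bud the share stood at 14.8% and 15.3% in 2063A and at 19.2% and 19.1% in B409, so the cultivars did not overlap. Genes higher in silique held 29.2% ± 1.67 in silique and 8.15% ± 1.05 in flower bud (SD, n = 4 each). The values within the contrasted organs follow from the calling. In young leaf, which the calling did not use, the genes higher in silique held 43.4% ± 2.86, and in root 12.9% ± 0.61 (SD, n = 4 each).

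The young leaf share came almost wholly from the 1259 genes with their highest mean there, which held 40.03% ± 2.56 of the young leaf sum and 15.0% ± 1.12 of the silique sum (SD, n = 4 each). They held 5.07% ± 0.63 of the flower bud sum and 0.875% ± 0.015 of the root sum (SD, n = 4 each). Their median mean FPKM was 39.2 in young leaf and 14.8 in silique, and it was 4.12 in flower bud and 0.183 in root. Leaf in first place and silique above bud follow from how these genes were chosen. Root was kept from first place by the same choice, and its median was the lowest of these. The 2446 genes with their highest mean in silique held 11.6% ± 0.51 of summed FPKM in silique and 1.96% ± 0.33 in young leaf (SD, n = 4 each), with a median log2 change between the organs of -1.75. The 1126 genes with their highest mean in root held 9.81% ± 0.53 of summed FPKM in root and 2.6% ± 0.08 in silique (SD, n = 4 each).

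**Figure D3:**
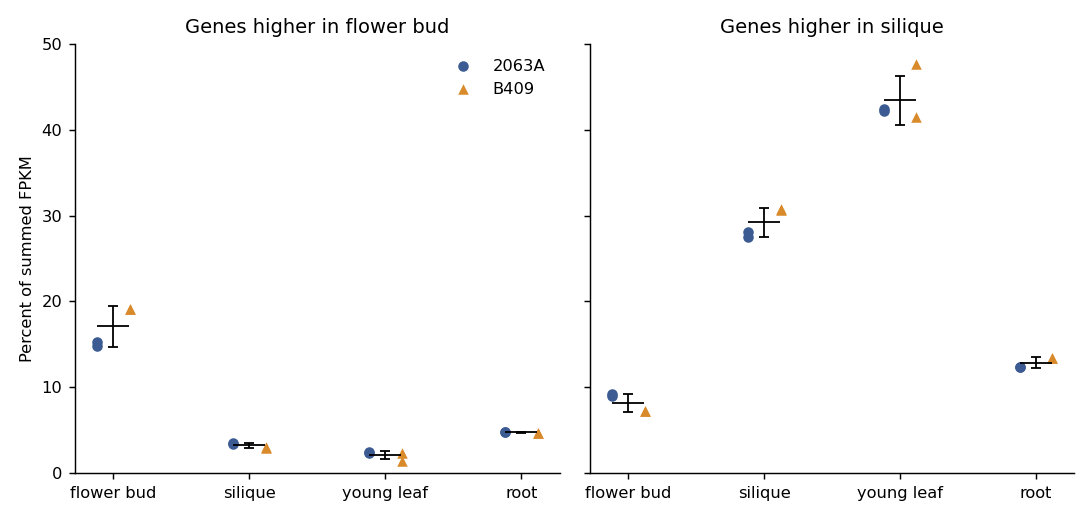
The vertical axis gives the percent of a library's summed FPKM that came from genes called higher in flower bud (left) or in silique (right), with 1 point per library and the mean ± SD of 4 libraries in black. Genes higher in silique held more in young leaf (43.4%) than in silique itself (29.2%), whereas genes higher in flower bud held at most 4.82% in any library outside the bud.

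The genes that met the 1 FPKM cut in a single organ of the pair also differed in how often they appeared in the outside tissues. Of the 1687 genes found in flower bud and below 1 in silique, 20.3% reached an FPKM of 1 in some young leaf library and 30.0% in some root library. Of the 1613 silique genes, 42.2% did so in young leaf and 43.5% in root. The matching shares over all tested genes are not given here, so only these classes are set side by side. For the stricter classes listed at 0 in the other organ, 491 of 540 flower bud genes (90.9%) and 481 of 583 silique genes (82.5%) stayed below 1 in every young leaf and root library.

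The level of the bud-restricted genes differed between the cultivars. Among the 540 genes found in flower bud and listed at 0 in silique, the median log2 level in bud was 0.96 lower in 2063A than in B409 (median of 2063A minus B409, -0.96), and 259 genes (48.0%) were at least 2-fold higher in B409, against 28 at least 2-fold higher in 2063A. Over all tested genes, the median of the same difference in bud was 0.11, with 6.47% at least 2-fold higher in B409 and 7.92% in 2063A. These levels and folds, and those given below for silique, are on the log2(FPKM + 1) scale. That scale understates differences of low genes, so they are not folds of FPKM itself. The difference was present in each pairing of a 2063A bud library with a B409 bud library, with medians from -1.02 to -0.91. In these pairings, between 419 and 442 of the 540 genes (77.6% to 81.9%) were higher in B409, against 37.8% to 41.9% of all tested genes. The pairings reuse the same libraries and are not independent. The deepest and the shallowest bud library, 2063A replicate 2 and B409 replicate 2, form 1 of these pairings (-0.91).

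This pattern was more marked among genes with a larger organ difference, in sets that were not matched for level in bud. Among all 4738 genes called higher in flower bud the median difference was -0.05, and 18.8% were at least 2-fold higher in B409. Among the 428 with a log2 change of at least 3 the median was -0.87, and 43.7% were at least 2-fold higher in B409. In silique the matching class leaned the same way by less: for the 583 silique genes listed at 0 in bud the median level was -0.23 (2063A minus B409), and 70 genes were at least 2-fold higher in B409, against 28 in 2063A. The buds of both cultivars carry the same size label of at most 2 mm. These medians are descriptions with no test, and the all-tested set also holds genes that are low in bud or in silique.

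**Figure D4:**
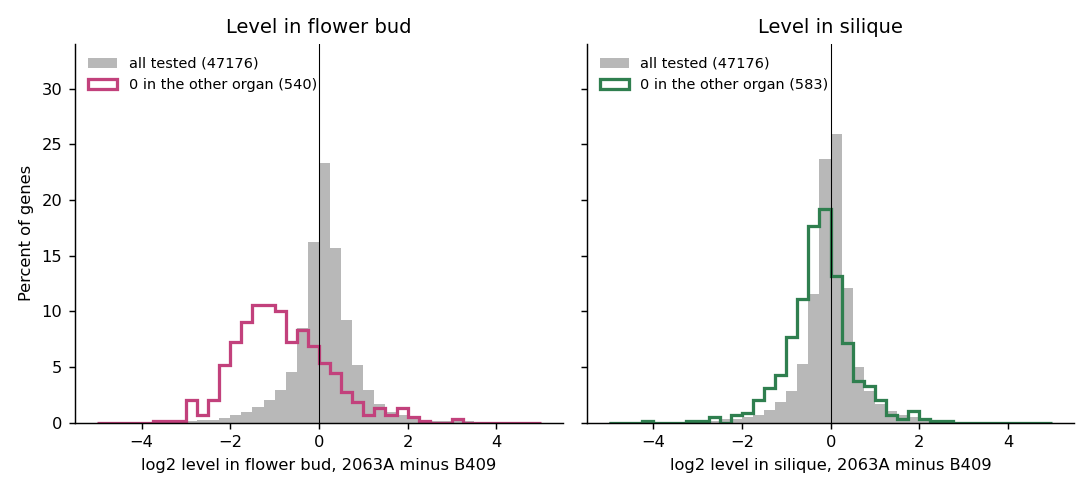
The histograms give the percent of genes by log2(FPKM + 1) level in 2063A minus B409, in flower bud (left) and in silique (right). All 47176 tested genes are in grey, and genes listed at 0 in the other organ are an outline. The outline for flower bud (540 genes, median -0.96) is displaced toward B409, and that for silique (583 genes, median -0.23) by less.

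The organ difference was then taken within each cultivar, in a limma fit with a mean for each of the 4 groups. In 2063A, 5155 genes (10.9%) were higher in flower bud and 4030 (8.54%) in silique. In B409 the counts were 5421 (11.5%) and 6350 (13.5%). The genes higher in bud in both cultivars numbered 3152, which is 61.1% of the list of 2063A and 58.1% of that of B409. The genes higher in silique in both numbered 3335, which is 82.8% of the list of 2063A and 52.5% of the longer list of B409. Across genes, the organ differences of the cultivars correlated at r = 0.852, over 47176 genes from separate libraries.

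The difference between the cultivars in the organ change was tested directly as an interaction. It passed an adjusted p of 0.05 for 7192 genes (15.2%), of which 3985 differed by at least 1 on the log2 scale. Of the 7192, 3545 were called between the organs in a single cultivar, 1624 in both in the same direction, 2004 in neither and 19 in opposite directions. The single-cultivar calls were led by the 1515 genes higher in silique in B409, followed by 872 higher in bud in B409, 840 higher in bud in 2063A and 318 higher in silique in 2063A. Among all 7192, some genes were near silent in 1 cultivar: 633 stayed below an FPKM of 1 in all 4 libraries of B409 and 713 in all 4 of 2063A.

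The interaction count and its direction depended on libraries and scaling. It was 3682 without B409 silique replicate 2, 4073 without 2063A silique replicate 1, 4181 without B409 flower bud replicate 2, 4288 without 2063A flower bud replicate 2, 4377 without B409 silique replicate 1 and 4618 without 2063A flower bud replicate 1. It was 4662 with all 16 libraries in the fit, and 1992 without both of the shallowest libraries, a setting chosen after the data were seen. Taken with its sign, the bud-minus-silique change was higher in 2063A than in B409 for 64.3% of the 7192 genes as deposited. After quantile normalization this held for 52.6% of 6902 genes. A gene raised more strongly in silique in B409 also counts here, so these shares do not rank the cultivars by strength of the organ difference. Quantile normalization moved the median change within 2063A from 0.16 to 0.04 and left that within B409 at 0.06 and 0.05.

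**Figure D5:**
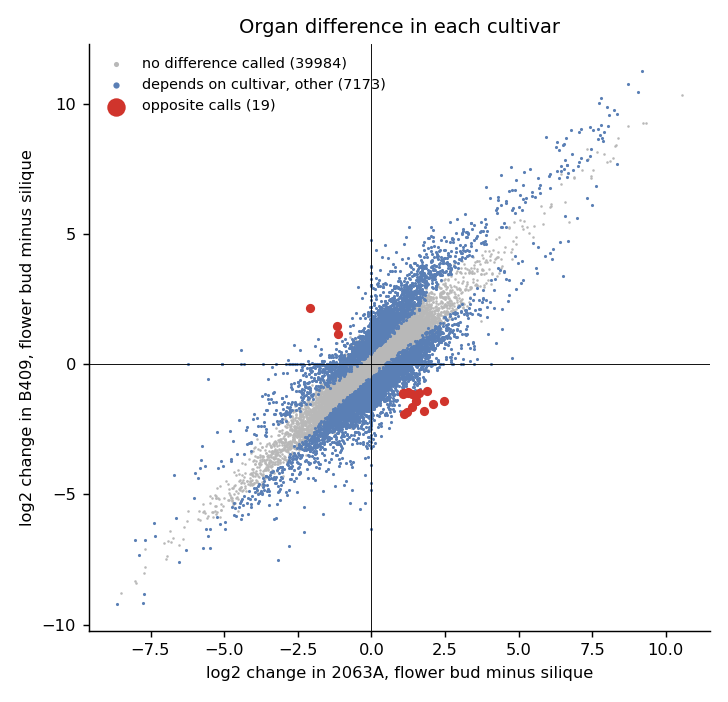
Each point is a tested gene, with the log2 change between flower bud and silique in 2063A on the horizontal axis and in B409 on the vertical axis. The 7192 genes whose organ difference depends on cultivar are in blue or red, and the 19 red points are called in opposite directions.

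Of the 19 genes with opposite calls, 16 were higher in bud in 2063A and in silique in B409, and 3 were the reverse. BnaA07g27230D, on A07, was at 32.5 and 34.2 in flower bud of 2063A and at 6.93 and 7.27 in its silique, but at 7.24 and 7.28 in flower bud of B409 and at 23.2 and 22.5 in its silique. The log2 change was 2.09 in 2063A and -1.53 in B409, a difference of 3.61 (SE 0.14, limma adjusted p = 4.3e-06). The 2 bud replicates and the 2 silique replicates did not overlap in either cultivar.

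BnaC02g25950D, on C02, was at 14.5 and 12.5 in flower bud of 2063A against 1.53 and 1.72 in its silique, and at 0.895 and 0.683 in flower bud of B409 against 4.34 and 3.28 in its silique (difference of the log2 changes 3.88, SE 0.24, limma adjusted p = 3.3e-05). It was far higher in young leaf, at 78.9 to 360. Among the reverse cases, BnaC08g46530D was at 2.05 and 2.49 in flower bud of 2063A and 12.2 and 13.4 in its silique, and at 47.2 and 55.9 in flower bud of B409 and 10.4 and 11.3 in its silique. The difference was -4.23 (SE 0.18, limma adjusted p = 6.3e-06), and the silique levels of the cultivars lay close together while their buds did not. BnaC03g63070D was at 2.67 and 3.2 in flower bud of 2063A and 7.57 and 8.17 in its silique, against 6.37 and 8.84 in flower bud of B409 and 2.04 and 2.03 in its silique (difference -2.66, SE 0.24, limma adjusted p = 0.00017).

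Genes of both subgenomes took part. Of 23206 tested A genes, 10.7% were higher in flower bud and 10.3% in silique, and of 23856 tested C genes 9.42% and 10.2%. Over the 19 chromosomes the share higher in flower bud ran from 7.91% on C02 to 13.1% on A02, and the share higher in silique from 8.14% on A10 to 12.2% on A04. Chromosome A10 was second to A02 in the flower bud share (11.98%) and lowest in the silique share. Neighbouring genes can be copies of each other, so these shares were not tested.

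Called genes sat beside genes of the same kind somewhat more often than the overall shares. With tested genes ordered by identifier number, the next gene was also higher in flower bud for 13.0% of the genes higher in flower bud, against 10% of all tested, and higher in silique for 14.9% of those higher in silique, against 10.2%. Opposite neighbours were less common than the overall shares: the next gene was higher in silique for 8.44% of the genes higher in flower bud, and higher in flower bud for 9.41% of those higher in silique. These shares were not tested.

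The longest run on the silique side held 7 consecutive tested genes on C07, from BnaC07g34510D to BnaC07g34620D, within 12 listed identifiers. The last 6 of them, BnaC07g34570D to BnaC07g34620D, were listed at 0 in every bud, young leaf and root library. In silique their means lay between 20.9 and 21.5 for the first 3 of these 6 and between 10.8 and 11.4 for the other three. BnaC07g34510D, at the head of the run, was at 27.1 to 33.2 in silique and 0.849 to 3.34 in flower bud, and its mean in root was 40.7 (log2 change -3.32, SE 0.19, limma adjusted p = 4.4e-07). Whether these genes are copies of each other was not tested.

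On the flower bud side the longest runs held 5 tested genes, and both lay on A02. In the run from BnaA02g06490D to BnaA02g06550D the highest gene was BnaA02g06540D, at 18.4 to 62.1 in flower bud and listed at 0 in every other tissue. In the run from BnaA02g25290D to BnaA02g25360D all 5 genes were listed at 0 in silique, young leaf and root, and their bud means were low, between 1.53 and 4.77. BnaA02g25290D and BnaA02g25350D had the same value in all 8 libraries, so they are not separate measurements. Among all tested genes 28 shared their 8 values with another, of which 4 were called higher in flower bud and 4 in silique.

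The 2 identifiers with a RefSeq name did not pass the organ test. KCP1 (BnaA02g32290D) was at 20.2 and 18.9 in flower bud of 2063A and 15.2 and 16.9 in its silique, and at 8.09 and 7.6 in flower bud of B409 and 9.57 and 9.4 in its silique. The log2 change was 0.01 (SE 0.12, limma adjusted p = 0.94), and levels in 2063A were above those in B409 in both organs. TR1 (BnaCnng15100D) was at 8.52 and 11.0 in flower bud of 2063A and 7.34 and 8.06 in its silique, and at 9.54 and 7.71 in flower bud of B409 and 8.48 and 9.6 in its silique (log2 change 0.12, SE 0.13, limma adjusted p = 0.45). Its organs overlapped.

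At the edge of the call, BnaA03g15720D was just inside, with a log2 change of 1.04 (SE 0.41, limma adjusted p = 0.049). It was at 4.5 and 3.57 in flower bud of 2063A and at 0.673 and 0.411 in that of B409, so its call rested on 1 cultivar. BnaA05g05980D was just outside (limma adjusted p = 0.051). Of the 8 libraries it was detected in the 2 of B409 flower bud, at 1.71 and 5.23, and outside them it was at 0.393 in B409 root replicate 2.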

How the data were processed

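Per the file headers, each deposited file gives 1 FPKM value per gene for 1 library. Per the submitters' processing notes, Trimmomatic, TopHat2 and Cufflinks 2.1.1 were used, with settings, build and annotation not given in the sources used here. Because FPKM is no count, count models were left out. Absolute depth is unknown. Relative depth was read from ratios of low values (below 0.3 FPKM in both libraries), of which 84.6% to 88.9% per library lay within 0.005 (log2) of a ratio of whole numbers up to 5.

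Values were taken as log2(FPKM + 1), which understates changes of low genes. Genes at FPKM of at least 1 in at least 2 of the 8 libraries were tested with limma 3.58.1 in R 4.3.3 (empirical Bayes with a trend, 5 residual and 4.76 prior degrees of freedom with cultivar as covariate, 4 and 5.53 with 4 group means), two-sided, with Benjamini-Hochberg adjustment over all tested genes. The fits were tested on simulated data. Values listed at 0 can be failed estimates. Values of near-identical copies are uncertain. The comparison and gene lists were chosen with earlier results of these data known. Genes were named by rule: those with a RefSeq name, the largest changes without overlap among genes not listed at 0 throughout an organ, the highest levels, the highest levels listed at 0 in the other organ, opposite calls with the smallest interaction p, the longest runs, and those nearest the threshold. The alternatives are a pseudocount of 0.1, other filters and scalings, all 16 libraries, a replicate block, no cultivar term and leaving out each library.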

Additional observations from a re-analysis of the deposited data

Results flagged for a closer look

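The organ difference depended on cultivar for 7192 genes by limma's interaction contrast. Among the genes named, the log2 change in 2063A minus that in B409 passed the adjusted threshold for 4 chosen for opposite calls: 3.61 for BnaA07g27230D, 3.88 for BnaC02g25950D, -4.23 for BnaC08g46530D and -2.66 for BnaC03g63070D. Those 4 were picked for the smallest interaction p among the genes with opposite calls, all 19 of which passed. Their passing thus followed from the choice. Among all tested genes 15.2% passed, and of the genes chosen for size or abundance 7 did. The 3 of these that were high in flower bud had the larger change in B409, at -2.04 for BnaC03g15620D, -2.11 for BnaA03g12750D and -1.34 for BnaAnng37980D. The 4 that were high in silique had the larger change in B409 as well, at 0.58 for BnaA05g18870D, 1.41 for BnaA09g00730D, 0.70 for BnaC04g30870D and 0.94 for BnaA05g14890D. The other 5 did not pass: -0.31 for BnaA02g02910D, 0.05 for BnaA04g06280D, 0.21 for BnaA10g23670D, 0.27 for BnaA05g20420D and 0.51 for BnaC05g32380D. The differences of BnaC03g15620D and BnaA03g12750D are differences in bud level, since both are at or near 0 in silique, and those of BnaA05g18870D and BnaA09g00730D are differences in silique level, since both are listed at 0 in every bud library. KCP1 (BnaA02g32290D) differed by 0.51 while neither cultivar passed the organ test. The genes at the edge of the organ call also differed, by 2.37 for BnaA03g15720D and -2.04 for BnaA05g05980D, which is listed at 0 in silique, so that its value is a difference in bud level.

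A screen of 37 sets of 4 libraries (library measures and named genes, by organ) found 0 with a single outlying library by Dixon's criterion, which flags about 1 in 20 sets by chance where the 4 libraries are alike. Each set mixes the cultivars, so a difference between them widens the set and can hide an outlying library. The screen therefore cannot exclude one.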

How the results depend on the processing

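The counts of genes higher in flower bud and in silique stayed within 1.5 times of the reported ones under every alternative run except a pseudocount of 0.1, which gave 7646 higher in flower bud over both cultivars, 7866 higher in flower bud in 2063A and 97 genes with opposite calls, against 19 as reported. In that setting 6772 genes were higher in silique over both cultivars. Quantile normalization lowered the share of silique summed FPKM from genes higher in silique to 27.5% and that of young leaf to 39.4%. The number of genes whose organ difference depends on cultivar also moved: it was 4662 with all 16 libraries in the fit, 3682 to 5617 with a library left out, where the lone replicate is assumed to vary like the others, and 1992 without the shallowest libraries. The cause was not tested. Replicate numbers are shared between the organs, but deviations of same-numbered libraries did not correlate (r = -0.06 in 2063A and -0.01 in B409), so the numbers were not taken as pairs. With the replicate block, 4696 genes were higher in flower bud, 4765 in silique and 5790 depended on cultivar. No named gene reversed a called direction under any alternative. Calls were lost in some settings by BnaA03g15720D, and without B409 flower bud replicate 1 by BnaA02g06550D. BnaA05g05980D passed in some. Within-cultivar counts were not fitted with the block or without the cultivar term. Presence counts were recomputed only with equal totals and with libraries left out. Without the shallowest libraries, which leaves fewer libraries to satisfy, 2090 genes met the presence rule for flower bud and 1903 that for silique. Absolute depth is unknown, so no limit of detection is given for values listed at 0.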
